A study of Mus musculus with 6 samples.

Results

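Translation initiation and elongation factors are the proteins that assist the ribosome while it finds a start codon and while it lengthens the peptide chain. They were defined here by name, as the probe sets that the authors' deposited table assigns to a single gene whose symbol begins with Eif1 to Eif6 or with Eef1 or Eef2, without the kinases Eif2ak and Eef2k and without the sex-linked pair Eif2s3x and Eif2s3y. The rule took 134 of 45101 probe sets, for 54 genes. Of these, 4 genes with 12 probe sets, Eif2c1 to Eif2c4, carry an older name for the Argonaute genes Ago1 to Ago4, whose products bind small RNAs and are not translation factors, so they are counted apart where it matters. A further 17 probe sets that match an Eif gene together with another gene fell outside the rule.

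The study asked what whole bone marrow expresses after c-Jun is switched on in mice. The induced group comprised 3 arrays of marrow from c-Jun inducible mice that drank water with 1 mg/ml doxycycline over 24 hours, taken on day 1, and the control group comprised 3 arrays of marrow from c-Jun inducible mice without doxycycline, taken on day 0. Mice were 8 weeks old, and each array was hybridised with RNA pooled from 3 mice. Every mouse in both groups carried the inducible c-Jun alleles; the labels used here give neither the promoter that drives the transgene nor the strain. No array of doxycycline without the inducible gene was analysed here, so the drug, the induced gene and the day of sampling cannot be told apart. Both probe sets for Jun itself were near background, at 2.8 ± 1.41 and 1.0 ± 0.854 in the arrays labelled induced against 1.13 ± 0.902 and 1.6 ± 0.781 in the arrays labelled control (mean ± SD, n = 3), and neither passed the test (adjusted p = 0.446 and 0.81), so these signals do not check the labels. The groups are named below as labelled.

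As background, initiation begins when eIF2 brings the initiator tRNA to the small ribosomal subunit, which eIF1, eIF1A and the many-subunit eIF3 complex prepare for scanning. The eIF4 factors bind the capped end of the messenger RNA and unwind it, eIF5 and eIF5B complete the joining of the large subunit, and eIF2B recharges eIF2 with GTP. During elongation eEF1A carries each charged tRNA to the ribosome, the eEF1B complex reloads eEF1A with GTP, and eEF2 moves the ribosome along by one codon. Dividing blood-forming cells make much protein, and defects of ribosome production are known to cause inherited anaemias.

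Signals were linear MAS5 values in arbitrary units as deposited, and differences were tested with limma on log2(signal + 16) as induced minus control, and p-values were adjusted by Benjamini-Hochberg across the 31526 probe sets tested. A signal of 2, the highest reached by control probe sets for bacterial transcripts, was taken as background. The summed signal of all probe sets was 246508 ± 28724.5 in induced arrays and 205858 ± 14351.4 in control arrays (ratio 1.20), while 18 hybridisation spike probe sets summed to 60880 ± 1661.6 and 61078 ± 1057.8 (ratio 0.997, two-sided exact permutation p = 0.9). A sign of RNA quality moved with the groups: the signal of the Gapdh probe set at the 5′ end was 27.5% ± 1.58 of that at the 3′ end in induced arrays and 16.5% ± 5.50 in control arrays, with ranges of 25.8% to 28.9% and 12.5% to 22.7% that did not overlap (exact permutation p = 0.1). The second control array stood apart, with 346 probe sets at 0 against 4651 to 7813 in the other 5 arrays. The marrow also differed in its cell markers: 9 erythroid marker genes summed to between 260.1 and 332.4 in induced arrays against 1124 to 1303.6 in control arrays, and 8 of the 9 passed the test as lower, with Hba-a1 at background in every array. Of 4 eosinophil markers, which summed to between 220.9 and 269.3 against 22.1 to 31.8, 3 were higher (Ccr3 was at background); of 5 monocyte and macrophage markers, 79.4 to 99.8 against 44.0 to 62.4, 4 were higher. Of 8 neutrophil markers, 9994.4 to 11675.8 against 8578.8 to 9828.5, 2 were higher and 4 lower; of 6 B cell markers, 93.2 to 115.7 against 65.9 to 74.5, 1 was higher (Pax5 was at background); none of 4 T cell markers passed, at 3.6 to 5.8 against 3.1 to 4.5 (Cd3g was at background). In such bulk samples fewer cells of a type and less RNA per cell cannot be told apart, and the part of these shifts, and of the Gapdh difference, in the results below was not tested.

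Translation factor signals were higher in induced marrow for 14 of 54 genes and lower for none as deposited, although 3 genes were lower after quantile normalization and 1 after scaling to 1 median of bright probe sets. Counted over genes, each read from the member probe set with the largest mean log2 signal, 25.9% passed the test as higher and 0 of 54 as lower, against 5.13% higher and 1.83% lower among all 16273 genes. Of the 118 member probe sets that passed the filter on low values, 19 were higher and 0 lower. Of all probe sets tested, 4.19% were higher and 1.35% lower. At an unadjusted p under 0.05, 38 of the 118 were higher and 4 lower. The matching share of all probe sets is not given here, so this count does not set the members apart. The other 16 member probe sets were not tested, and 37 of the 134 were at or under background in every array.

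The share of higher probe sets differed with signal strength, among members and among all probe sets. Among probe sets with a mean signal over 10, 17 of 40 members were higher and 0 lower (42.5%), against 32.7% higher and 8.26% lower of all 2868 such probe sets. The median log2 change was 0.35 for these members and 0.24 for all probe sets of that brightness, and for genes over a mean signal of 10 it was 0.37 for 27 members and 0.20 for 1913 genes. Of those 27 genes 12 were higher and 0 lower (44.4%), against 30.1% higher and 9.46% lower of the 1913. In 23 of the 40 every induced array lay above every control array, and in 1 every induced array lay below, against 44.5% above among the 2868. Of the 78 tested members at a mean signal of 10 or less, 2 were higher, for Eif3g and Eif2s1. Of all 31526 probe sets tested 1320 were higher, and 937 of these were among the 2868 over a mean signal of 10. Without the second control array, 10 member probe sets were higher and 1 lower, and 8 genes were higher.

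**Figure D1:**
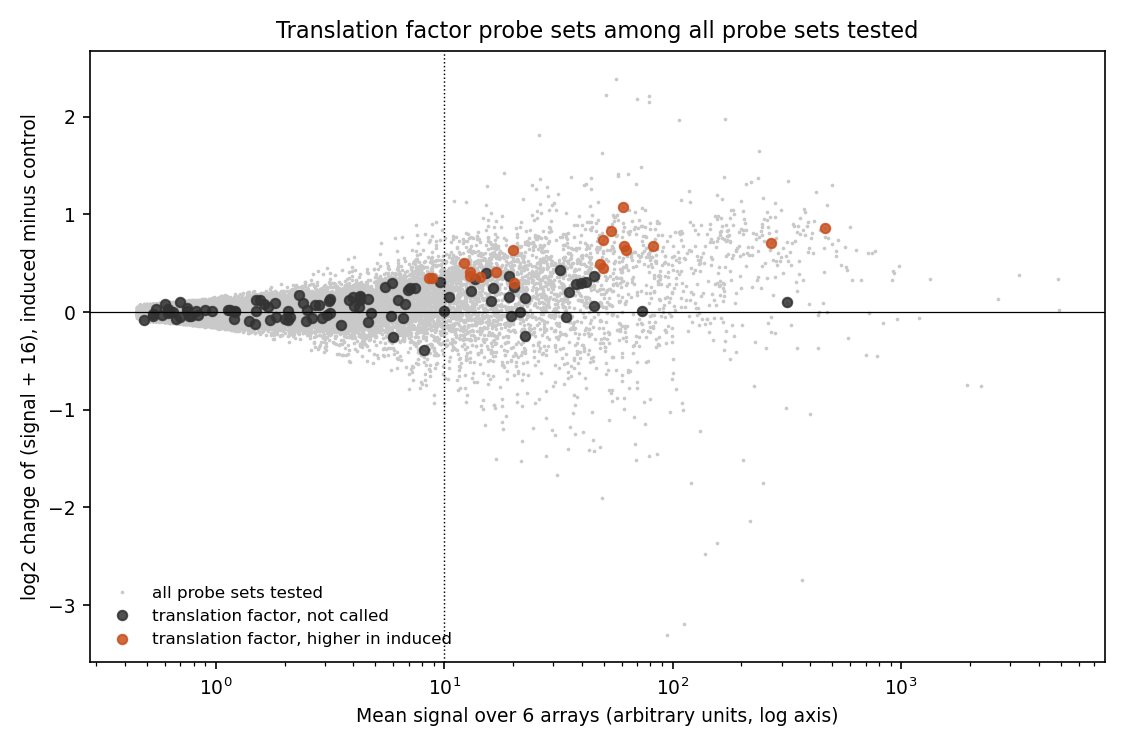
Each point is a probe set, with its mean signal over the 6 arrays across (arbitrary units, log axis) and its log2 change of (signal + 16), induced minus control, up; grey points are all probe sets tested, dark points translation factors and orange points the 19 translation factor probe sets with an adjusted p under 0.05. All 19 lie above 0, 17 of them right of the dotted line at a mean signal of 10, where the grey cloud also lies more above 0 than below.

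The summed signal of the 54 genes was 2741.8, 2149.9 and 2349.3 in the 3 induced arrays and 1490.9, 1571.0 and 1769.0 in the 3 control arrays. Every induced array exceeded every control array, with means of 2414 ± 301.2 and 1610 ± 143.2 and a ratio of 1.50 (two-sided exact permutation p = 0.1, the smallest that 3 against 3 arrays allow). As a share of all signal on the array the sum was 0.979% ± 0.0123 in induced arrays and 0.782% ± 0.0461 in control arrays (exact permutation p = 0.1). Such a sum gives most weight to the brightest genes. Eef1a1 averaged 605.8 in induced and 325.8 in control arrays, and Eef1b2 341.3 and 200.4. The median log2 change over the 54 genes was 0.22.

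Among the proximal promoters, 42 of the 54 genes have a window in the RefSeq table (GRCm38.p6), 250 bases before to 50 after an annotated start. The windows below show this region for some of the genes named in the results. Eef1a1 and Eef2, which encode elongation factors, and Eif4a1, the cap-dependent helicase, were higher. For Eif3a, a core eIF3 subunit, no change was called. Capitals mark the E-box CACGTG and the cAMP response element TGACGTCA.
Eef1a1, chr9:78481675-78481974, minus strand: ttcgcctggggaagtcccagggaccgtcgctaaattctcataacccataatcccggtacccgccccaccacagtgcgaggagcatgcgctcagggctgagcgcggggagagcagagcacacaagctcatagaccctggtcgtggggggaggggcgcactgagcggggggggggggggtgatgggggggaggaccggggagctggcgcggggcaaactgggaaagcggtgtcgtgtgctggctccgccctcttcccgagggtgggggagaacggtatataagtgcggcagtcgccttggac
Eef2, chr10:81176381-81176680, plus strand: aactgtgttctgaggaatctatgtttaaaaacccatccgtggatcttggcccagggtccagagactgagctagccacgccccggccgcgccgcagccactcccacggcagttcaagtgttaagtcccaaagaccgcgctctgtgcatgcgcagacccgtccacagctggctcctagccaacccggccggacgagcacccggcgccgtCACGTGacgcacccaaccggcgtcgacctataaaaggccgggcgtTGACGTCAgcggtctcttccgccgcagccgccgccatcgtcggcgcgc
Eif4a1, chr11:69672374-69672673, minus strand: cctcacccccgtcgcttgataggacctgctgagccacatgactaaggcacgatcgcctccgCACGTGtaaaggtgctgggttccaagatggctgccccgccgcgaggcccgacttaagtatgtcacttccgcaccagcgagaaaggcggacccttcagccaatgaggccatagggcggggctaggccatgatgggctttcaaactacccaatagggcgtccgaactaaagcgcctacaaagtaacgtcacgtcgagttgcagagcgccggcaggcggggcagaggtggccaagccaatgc
Eif3a, chr19:60790644-60790943, minus strand: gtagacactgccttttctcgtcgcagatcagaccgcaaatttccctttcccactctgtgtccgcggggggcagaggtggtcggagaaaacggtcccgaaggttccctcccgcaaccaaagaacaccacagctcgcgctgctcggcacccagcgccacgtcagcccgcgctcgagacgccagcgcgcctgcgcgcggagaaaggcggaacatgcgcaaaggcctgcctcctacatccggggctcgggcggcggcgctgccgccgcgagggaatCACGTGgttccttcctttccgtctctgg

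In these windows CACGTG stood in Eef2, Eif4a1 and Eif3a, so it was present in genes with and without a call, and TGACGTCA stood in Eef2 just after its start. Over all members with a window, CACGTG, which MYC and related proteins bind, was found in 11 of 42 genes (26.2%), against 12.6% of 1534 genes with a probe set over a mean signal of 10 and 8.09% of all 27025 genes in the table. It was found in 4 of 10 genes that were higher (Eef2, Eif1b, Eif4a1 and Eif4e) and in 7 of 32 that were not called. TGANTCA, the AP-1 site that Jun proteins bind with Fos proteins, was found in 2 of 42 genes, Eif3f and Eif3l (4.76%, against 6.45% of the 1534 genes and 8.97% of all genes), and TGACGTCA in 1 of 42 (2.38%, against 3.65% and 2.03%). Each motif was searched on both strands, and no motif overlapped another in the printed windows; a match describes letters and not a bound site.

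Elongation factors were among the larger differences. Eef1a1, which encodes the carrier of charged tRNAs, had signals of 671.4, 521.1 and 625.0 in induced arrays, against 315.8, 302.6 and 359.1 in control arrays. The groups were well apart, with means of 605.8 ± 77.0 and 325.8 ± 29.6, a ratio of 1.86 and a log2 change of 0.86 ± 0.09 (SE; adjusted p = 0.000909). After quantile normalization the change was 0.34 (adjusted p = 0.00801, in a range of 5.66e-08 to 0.335 over 16 alternatives). Eef1b2, a subunit that reloads eEF1A with GTP, had 413.1, 285.1 and 325.6 in induced arrays, against 191.7, 197.8 and 211.6 in control arrays, again without overlap (ratio 1.70, log2 change 0.71 ± 0.11, adjusted p = 0.00543). Its call did not hold without the second control array (adjusted p = 0.0654), after quantile normalization (log2 change 0.20, adjusted p = 0.0563) or without a filter on low values (adjusted p = 0.0563), in a range of 0.00157 to 0.42 over 16 alternatives. Eef1g, the structural subunit of the same exchange complex, had 111.0, 104.0 and 98.8 in induced arrays, against 52.6, 55.4 and 71.6 in control arrays. All 3 induced values exceeded all 3 control values (ratio 1.75, log2 change 0.68 ± 0.09, adjusted p = 0.00225; 0.45 after quantile normalization).

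Eef1d, the further exchange subunit of that complex, was chosen for comparison after its values were seen. Its signals were 83.8, 72.1 and 65.7 in induced arrays, against 70.4, 72.9 and 75.4 in control arrays, and the groups overlapped (log2 change 0.01, 95% interval -0.15 to 0.17, adjusted p = 0.973). The sign of this change was negative under quantile normalization (-0.22) and in the authors' deposited table, where the ratio, turned to induced over control, was 0.765 with an unadjusted p of 0.00542647.

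Eef2, which translocates the ribosome, had 60.8, 56.5 and 62.2 in induced arrays, against 37.0, 40.1 and 41.9 in control arrays. The spread within each group was small beside the gap between them (59.8 ± 2.97 and 39.7 ± 2.48, ratio 1.51, log2 change 0.45 ± 0.06, adjusted p = 0.00159). The call was lost with an intensity trend in the variance model (adjusted p = 0.21), and the change was 0.24 after quantile normalization (adjusted p = 0.0488, in a range of 0.00108 to 0.535 over 16 alternatives). The remaining elongation factor 1 genes, Eef1a2, the form of muscle and nerve, and Eef1e1, a small protein of the synthetase complex, had mean signals under 4 in both groups and were not called.

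**Figure D2:**
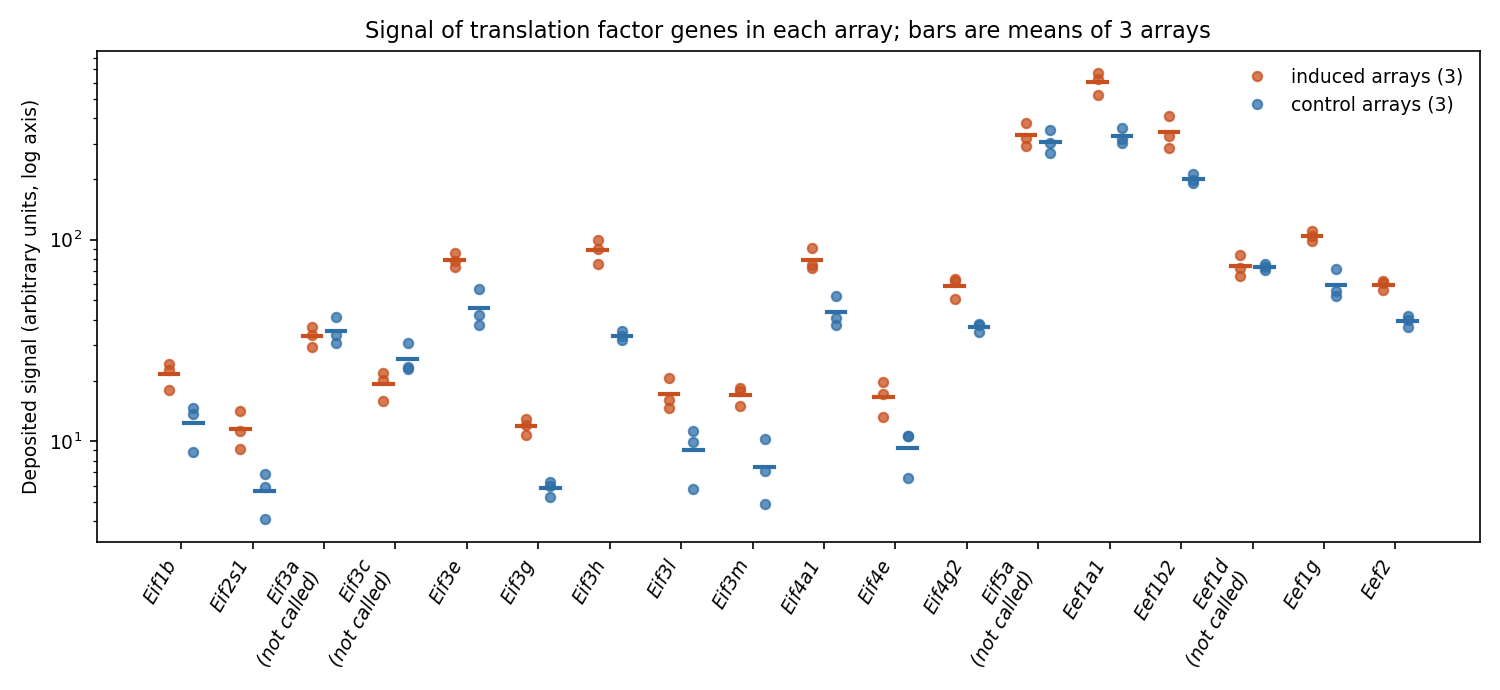
The deposited signal (arbitrary units, log axis) of 18 translation factor genes in each of the 3 induced arrays (orange, left) and 3 control arrays (blue, right), with a bar at each group's mean; heights are not comparable between genes, since each is its own probe set. The 14 genes that were higher show no overlap between groups, while Eif3a, Eif5a and Eef1d overlap and Eif3c, which was not called, has its 3 induced arrays below its 3 control arrays. The 14 were picked by the test on these same arrays, so their lack of overlap is not separate support. Among all 2868 probe sets over a mean signal of 10, 44.5% had every induced array above every control array.

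The eIF3 complex, the scaffold that holds the small subunit ready for the message, had 5 of 12 genes higher and 0 lower, with a median log2 change of 0.32 (4 higher and 1 lower, Eif3c, after quantile normalization, with a median of 0.13). Of its 10 genes with a mean signal over 10, 4 were higher, beside 30.1% of all such genes. Eif3h had the largest change of any translation factor, at 99.9, 89.7 and 76.0 in induced arrays, against 33.1, 31.7 and 35.1 in control arrays. The lowest induced array exceeded the highest control array by far (ratio 2.66, log2 change 1.08 ± 0.08, adjusted p = 0.000109). Eif3e, which sits beside Eif3h in the same part of the complex, had 86.4, 78.5 and 73.3 in induced arrays, against 42.5, 37.6 and 56.7 in control arrays, and the groups did not overlap (ratio 1.74, log2 change 0.64 ± 0.10, adjusted p = 0.00662; 0.0508 without the second control array, and 0.00215 to 0.39 over 16 alternatives). It was measured over a mean signal of 10 by 3 probe sets, all 3 higher, with ratios of 1.74, 1.99 and 2.10.

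Eif3m and Eif3l, further subunits of the scaffold, and Eif3g, an RNA-binding subunit, gave weaker signals. Eif3m had 18.4, 17.8 and 14.9 in induced arrays, against 7.1, 4.9 and 10.3 in control arrays (ratio 2.29, log2 change 0.50 ± 0.08, adjusted p = 0.00751). Its call was lost without a filter on low values (adjusted p = 0.0563) and with a pseudocount of 1 (0.231). Another, weaker Eif3m probe set had 7.5, 3.7 and 5.6 in induced arrays, against 5.0, 7.8 and 5.7 in control arrays, and was not called (ratio 0.908, adjusted p = 0.903). Eif3l had 20.5, 16.1 and 14.6 in induced arrays, against 9.9, 5.8 and 11.3 in control arrays (ratio 1.90, log2 change 0.41 ± 0.09, adjusted p = 0.0358). Neither gene's groups overlapped in the probe set that represents it. But the Eif3l call was lost without the first or second control array (adjusted p = 0.0788 and 0.128), without any one induced array (0.116, 0.0793 and 0.0577) and under 3 rescalings of the arrays (0.0955 to 0.176). Over 16 alternatives its adjusted p ran from 0.0135 to 0.362. Eif3g, named after its values were seen, had 12.9, 10.7 and 12.0 in induced arrays, against 5.3, 6.3 and 6.0 in control arrays, without overlap (ratio 2.02, log2 change 0.35 ± 0.05, adjusted p = 0.00376).

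Other eIF3 subunits were not called. Eif3a, the large core subunit, had 37.1, 29.5 and 33.7 in induced arrays, against 33.7, 41.2 and 30.7 in control arrays, and Eif3c, its partner in the core, had 21.9, 15.9 and 20.1, against 22.9, 23.3 and 30.9; both were picked after their values were seen. The Eif3a groups overlapped (log2 change -0.05, 95% interval -0.24 to 0.14, adjusted p = 0.892). In the probe set that represents Eif3c, every induced array lay below every control array without passing the test (log2 change -0.24, adjusted p = 0.22). That probe set passed as lower under quantile normalization (log2 change -0.41, adjusted p = 0.00247), in a range of 0.00245 to 0.721 over 16 alternatives. Another Eif3c probe set of similar signal had 22.2, 16.3 and 19.0 in induced arrays, against 23.7, 19.6 and 17.4 in control arrays. Its groups overlapped (log2 change -0.04, adjusted p = 0.899), as did those of the weaker Eif3c probe sets. For the probe sets that represent the genes, the authors' deposited table gives ratios of 0.752 for Eif3a (unadjusted p = 0.0294424) and 0.739 for Eif3c (unadjusted p = 0.00118904). For the other Eif3c probe set of similar signal it gives 0.87 (unadjusted p = 0.185723). The other 5 eIF3 genes, Eif3b, Eif3d, Eif3f, Eif3i and Eif3k, had log2 changes between 0.12 and 0.37, and none passed the test.

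**Figure D3:**
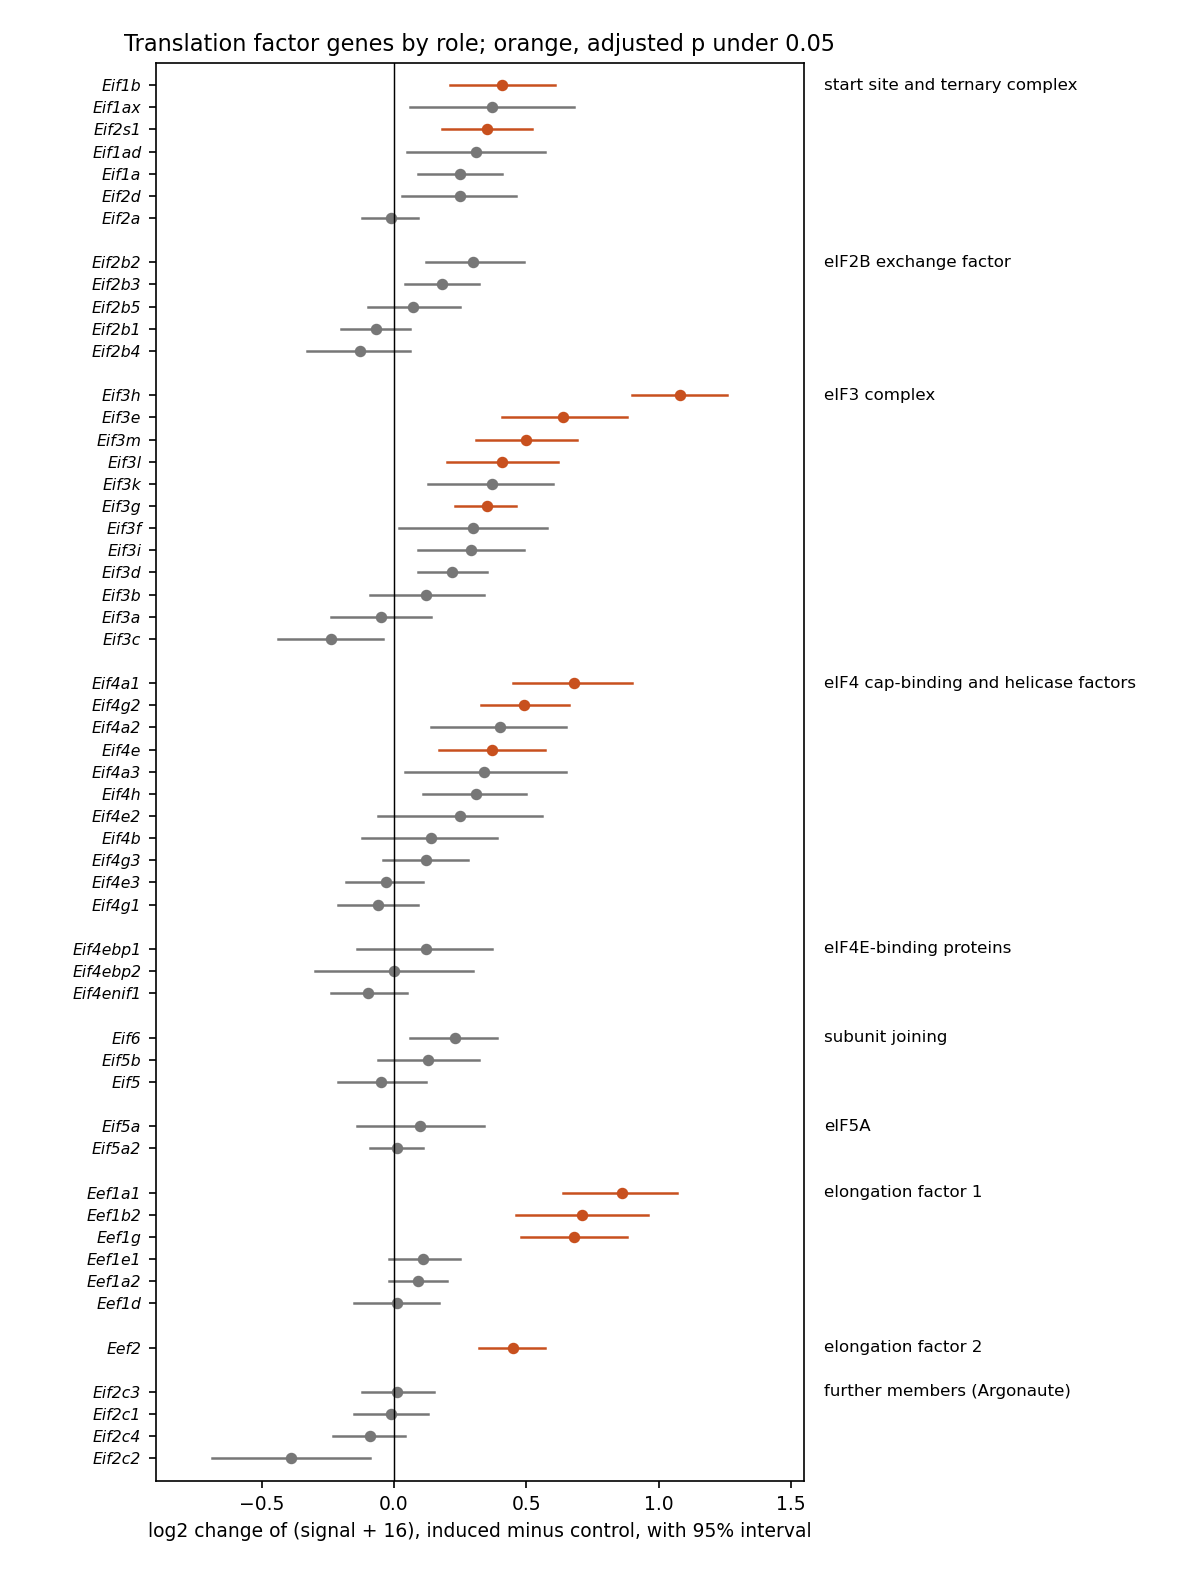
The log2 change of (signal + 16), induced minus control, of all 54 genes with its 95% interval from limma, grouped by role from start site factors at the top to the Argonaute genes at the bottom; orange marks an adjusted p under 0.05. Orange points occur in the start site, eIF3, eIF4, elongation factor 1 and elongation factor 2 groups, and every one lies right of 0.

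Of 11 genes for the cap-binding, scaffold and helicase factors of the eIF4 group, 3 were higher and 0 lower, with a median log2 change of 0.31. Of all genes at any signal 5.13% were higher. The 3 were among 8 with a mean signal over 10, beside 30.1% higher of all such genes. With 8 genes, the count alone does not set the group apart. Eif4a1, the helicase that unwinds the start of the message, had 90.5, 75.2 and 72.3 in induced arrays, against 41.1, 37.6 and 52.4 in control arrays. The groups did not overlap (ratio 1.82, log2 change 0.68 ± 0.10, adjusted p = 0.00377). A second Eif4a1 probe set was also higher (ratio 1.72, adjusted p = 0.0296), and another was not called (ratio 1.62, adjusted p = 0.275). Eif4g2, a scaffold that works without the cap-binding protein, had 62.3, 50.7 and 63.5 in induced arrays, against 35.0, 38.2 and 37.7 in control arrays, again apart (ratio 1.59, log2 change 0.49 ± 0.07, adjusted p = 0.00364). Its call was lost with an intensity trend (adjusted p = 0.12), and its change was 0.29 after quantile normalization (adjusted p = 0.0161, in a range of 0.00134 to 0.48 over 16 alternatives). Of its 3 probe sets over a mean signal of 10, 2 were called.

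Eif4e, the cap-binding protein itself, had 19.7, 13.2 and 17.1 in induced arrays, against 6.6, 10.6 and 10.6 in control arrays (ratio 1.80, log2 change 0.37 ± 0.09, adjusted p = 0.0422). The groups did not overlap, yet the call was lost without any one control array (adjusted p = 0.131, 0.122 and 0.086) or without the first or last induced array (0.139 and 0.15), in a range of 0.0214 to 0.407 over 16 alternatives. For Eif4b, a cofactor of the helicase named after its values were seen, the probe sets disagreed. One had 32.1, 25.3 and 25.9 in induced arrays, against 10.2, 9.7 and 16.9 in control arrays (log2 change 0.64, adjusted p = 0.00521), and the one that represents the gene had 29.1, 18.2 and 26.4, against 19.1, 26.1 and 17.3 (log2 change 0.14, adjusted p = 0.71). Over all members, 9 genes had at least 2 probe sets over a mean signal of 10: all were called in 1 gene, some in 3 and none in 5.

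The proteins that sequester or move eIF4E, Eif4ebp1, Eif4ebp2 and Eif4enif1, had no call among 3 genes. Of all genes 5.13% were higher and 1.83% lower. Eif4ebp2, the member of the set with the highest signal, had 21.0, 22.1 and 20.5 in induced arrays, against 12.7, 25.4 and 27.6 in control arrays, with overlapping groups (log2 change -0.00, 95% interval -0.30 to 0.30, adjusted p = 0.998). The authors' deposited table gives a ratio of 0.742 for it (unadjusted p = 0.0315264).

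Of 7 genes for start site selection and delivery of the initiator tRNA, 2 were higher and 0 lower, with a median log2 change of 0.31. Of all genes at any signal 5.13% were higher. Only 2 of the 7 had a mean signal over 10, and 1 of them was higher, beside 30.1% of all such genes. So few genes do not set the group apart by count. Eif1b, a close relative of the scanning factor Eif1, had 24.1, 17.9 and 22.7 in induced arrays, against 8.8, 13.6 and 14.6 in control arrays (ratio 1.75, log2 change 0.41 ± 0.09, adjusted p = 0.0301). Eif2s1, the eIF2 subunit that stress kinases phosphorylate, had 14.1, 9.2 and 11.3 in induced arrays, against 4.1, 6.9 and 5.9 in control arrays (ratio 2.05, log2 change 0.35 ± 0.08, adjusted p = 0.028). Both genes' groups were apart, but both calls sat close to the threshold. That of Eif1b was lost without the first or second control array (adjusted p = 0.0775 and 0.11) and without the first or last induced array (0.107 and 0.124), in a range of 0.017 to 0.413 over 16 alternatives. That of Eif2s1 was lost without any one control array (0.103, 0.0742 and 0.0918) and without the first or last induced array (0.0867 and 0.0961), in a range of 0.0117 to 0.334. Eif1ax, the X-linked gene for eIF1A, had 33.9, 16.2 and 22.3 in induced arrays, against 15.3, 11.9 and 16.5 in control arrays, where 1 induced array lay within the control values (log2 change 0.37, 95% interval 0.06 to 0.68, adjusted p = 0.219).

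None of the 5 eIF2B genes, which recharge eIF2, passed the test, beside 5.13% higher of all genes. All 5 had a mean signal of 10 or less, and their log2 changes ran from -0.13 to 0.30. Eif2b2, the one with the highest signal, had 8.1, 8.6 and 7.8 in induced arrays, against 4.1, 5.9 and 1.0 in control arrays, without overlap (log2 change 0.30, 95% interval 0.12 to 0.49, adjusted p = 0.0793). The 3 subunit joining genes, also at a mean signal of 10 or less, gave no call either. Among them Eif5 was read from a probe set near background, at 1.5 in induced arrays and 2.1 in control arrays, too low to show a fall. Some brighter Eif5 probe sets, which another gene shares, were lower and are described further below. Eif6, which keeps the ribosomal subunits apart until they are needed, had 8.4, 8.0 and 9.6 in induced arrays, against 3.0, 7.3 and 5.2 in control arrays, without overlap (log2 change 0.23, 95% interval 0.06 to 0.39, adjusted p = 0.155). At signals this low the scale of log2(signal + 16) understates a ratio.

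Eif5a, the hypusine-bearing factor that helps the ribosome through difficult stretches, had strong signals in both groups, at 378.0, 291.0 and 320.3 in induced arrays, against 270.9, 300.4 and 349.6 in control arrays. The groups overlapped (329.8 ± 44.3 and 307.0 ± 39.8, log2 change 0.10, 95% interval -0.14 to 0.34, adjusted p = 0.794). Its direction depended on scaling: it passed as lower under quantile normalization (log2 change -0.41, adjusted p = 0.00373, in a range of 0.00373 to 1 over 16 alternatives), and the authors' deposited table gives a ratio of 0.844 (unadjusted p = 1.31e-05). Another Eif5a probe set over a mean signal of 10 averaged 12.0 in induced arrays and 8.9 in control arrays. It was not called (log2 change 0.16, adjusted p = 0.521), and the authors' ratio for it was 1.12. None of the 4 Argonaute genes, all at a mean signal of 10 or less, was called. Eif2c2, the current Ago2, had 3.3, 4.0 and 7.2 in induced arrays, against 5.4, 15.0 and 14.2 in control arrays, with overlap (log2 change -0.39, 95% interval -0.69 to -0.09, adjusted p = 0.182), and was lower under quantile normalization (adjusted p = 0.0455, in a range of 0.00275 to 0.496 over 16 alternatives).

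The count of higher members moved with the scale set between arrays and with the pseudocount. After quantile normalization, 13 of the 40 members with a mean signal over 10 were higher and 2 lower, against 22.1% higher and 17.8% lower of all such probe sets, and the median log2 change of these members was 0.18 beside 0.06 for all. The ratio of the summed signal was then 1.12. With a pseudocount of 1 in place of 16, 0 of 119 members passed the test, against 0.349% higher of all probe sets tested. At an unadjusted p under 0.05, 17 members were higher and 4 lower. Without the matching share of all probe sets, that count does not set the members apart either. In the authors' deposited table, 16 of the 40 had an unadjusted p under 0.05 and a ratio above 1 and 5 a ratio below 1 (Eif3a, Eif3c, Eif4ebp2, Eef1d and Eif5a), against 35.8% above 1 among all such probe sets. That table put 19 of the 19 called probe sets above 1, 17 of them with an unadjusted p under 0.05.

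**Figure D4:**
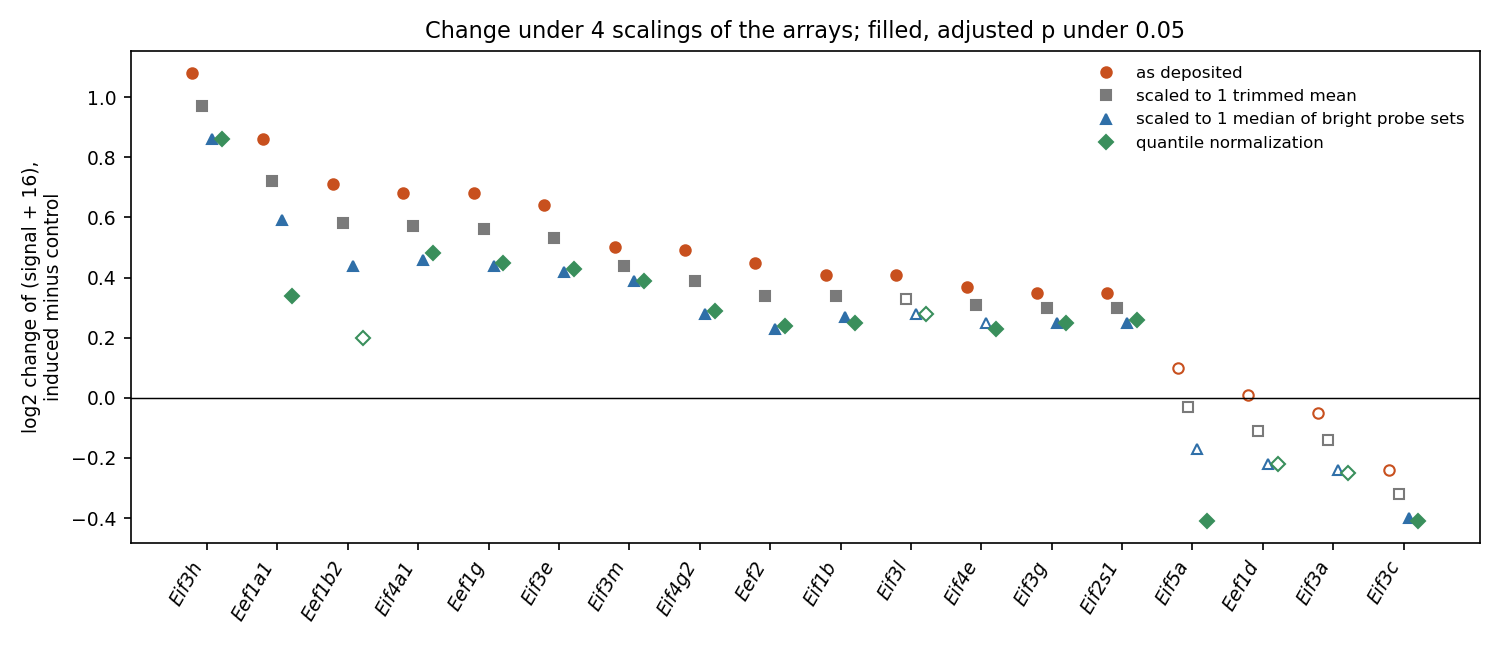
The log2 change of (signal + 16), induced minus control, of the 14 genes that were higher and of Eif5a, Eef1d, Eif3a and Eif3c, with signals as deposited (circles), scaled to 1 trimmed mean (squares), to 1 median of bright probe sets (triangles) and quantile normalized (diamonds); filled marks have an adjusted p under 0.05. Eif3h stays between 0.86 and 1.08, Eef1a1 runs from 0.34 to 0.86, and Eif5a and Eef1d cross 0.

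Neighbouring parts of the translation apparatus were read from lists of related genes. Of 48 cytosolic ribosomal protein genes, the structural partners of these factors, 30 were higher and 0 lower, with a median log2 change of 0.63 (17 higher and 0 lower after quantile normalization, with a median of 0.24). Of the 39 with a mean signal over 10, 30 were higher (76.9%), beside 30.1% of all such genes. The 4 with the smallest p were Rpl6, Rps4x, Rpl7 and Rpl4, with ratios of 1.98, 2.06, 1.70 and 1.93. Many ribosomal protein messages and several elongation factor messages share a pyrimidine tract at their start through which mTOR signalling controls their translation. Of 34 regulators of translation, 7 were higher and 2 lower (median log2 change 0.05), and 3 and 3 after quantile normalization. Of 11 regulators over a mean signal of 10, 5 were higher (45.5%), beside 30.1% of all such genes; over any signal the shares of all genes were 5.13% higher and 1.83% lower. Of 4 termination factors 1 was higher (median 0.15), of 21 aminoacyl-tRNA synthetases and partners 1 was higher (median 0.13), and of 8 mitochondrial translation factors none passed the limma test (median 0.05); none of these lists had a lower gene as deposited, and Hars, the histidyl-tRNA synthetase, passed as lower under 3 of 4 rescalings. Etf1, which recognises stop codons, averaged 11.1 in induced arrays and 5.87 in control arrays (adjusted p = 0.0456), and Dars, the aspartyl-tRNA synthetase, averaged 9.43 and 3.40 (adjusted p = 0.00257).

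The regulators that were higher act at several steps. Abce1, which splits ribosomes for reuse, had 46.3, 36.1 and 52.3 in induced arrays, against 15.0, 20.3 and 23.8 in control arrays (log2 change 0.77, adjusted p = 0.00369), with no overlap. Denr averaged 13.9 in induced arrays and 4.47 in control arrays (adjusted p = 0.0121), and its partner in ribosome recycling and reinitiation, Mcts1, 11.1 and 4.93 (adjusted p = 0.0388). Pabpc1, the poly(A)-binding protein, averaged 111.0 and 79.4 (adjusted p = 0.0145), and Paip2, which restrains it, 32.9 and 20.7 (adjusted p = 0.0239). Ddx3x, a helicase for structured messages, averaged 90.3 in induced arrays and 59.8 in control arrays (adjusted p = 0.0253). Eef2k, the kinase that inhibits eEF2, averaged 70.1 and 38.5 (adjusted p = 0.0367).

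The regulators that were lower both bear on eIF2. Ppp1r15a, which directs the phosphatase that reverses eIF2 phosphorylation, had 4.0, 1.5 and 2.7 in induced arrays, against 11.1, 11.9 and 7.8 in control arrays, without overlap (log2 change -0.49, adjusted p = 0.00462). Eif2ak1, the haem-regulated eIF2 kinase known from red cell precursors, had 8.3, 5.4 and 11.2 in induced arrays, against 14.8, 15.8 and 22.3 in control arrays, also without overlap (log2 change -0.47, adjusted p = 0.0285). Erythroid markers moved in the same direction, with 8 of 9 lower, and their part in the Eif2ak1 difference was not tested. The calls of Ddx3x, Mcts1, Pabpc1 and Paip2 depended on the scaling. Each was lost after quantile normalization (adjusted p = 0.391, 0.0736, 0.279 and 0.256), with 1 trimmed mean (0.0704, 0.0663, 0.261 and 0.269) and with 1 median of bright probe sets (0.376, 0.0826, 0.283 and 0.291). Several calls among the regulators, and that of Etf1, were lost when 1 array was left out. For Denr it was any of the 3 controls (adjusted p = 0.0544, 0.0684 and 0.0606), and for Ddx3x the first or last control or the last induced array (0.0998, 0.113 and 0.0902). For Pabpc1 it was the first or second control or the first or last induced array (0.0537, 0.0748, 0.0556 and 0.0696). For Paip2 it was the last control or any induced array (0.063, 0.0735, 0.0535 and 0.102), and for Eif2ak1 the second or last control or the first or second induced array (0.115, 0.0986, 0.0772 and 0.0865). Any control or the first or last induced array ended the call for Eef2k (0.0937, 0.128, 0.0663, 0.112 and 0.132), for Mcts1 (0.118, 0.168, 0.128, 0.0934 and 0.0776) and for Etf1 (0.16, 0.16, 0.0918, 0.137 and 0.148).

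Probe sets that an Eif gene shares with another annotated gene were kept out of the counts above. Of 15 that were tested, 1 was higher and 2 were lower, beside 4.19% higher and 1.35% lower of all probe sets tested. Over a mean signal of 10 the shares of all probe sets were 32.7% higher and 8.26% lower. The higher one belongs to Eif1, the scanning factor, and averaged 167.3 in induced arrays and 105.2 in control arrays (log2 change 0.61, adjusted p = 0.00512), while another Eif1 probe set, at 21.5 in induced arrays and 16.9 in control arrays, was not called (log2 change 0.18, adjusted p = 0.494). The 2 that were lower belong to Eif5, the activator of GTP hydrolysis by eIF2, and averaged 42.9 and 8.73 in induced arrays against 85.9 and 19.9 in control arrays (log2 change -0.78 and -0.53, adjusted p = 0.00404 and 0.0285). A further 2 shared Eif5 probe sets over a mean signal of 10 were not called (log2 change -0.37 and -0.19, adjusted p = 0.369 and 0.399). The single Eif5 probe set that met the naming rule averaged 1.5 in induced arrays and 2.1 in control arrays and was not called. It lay near the background of 2, so it cannot show whether Eif5 itself was lower. The lower signal was seen in probe sets that another gene shares.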

How the data were processed

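The 6 Affymetrix arrays of whole mouse marrow, 3 induced and 3 control, were grouped by the labels, and each held RNA pooled from 3 mice. The labels' protocols describe Trizol extraction, amplification to cDNA and biotin labelling. The deposited value table gives an intensity per probe set on a linear scale. The submitters' processing notes name MAS5; its version and scaling target are not given in the sources used here. The deposited signals carry 1 decimal, and 76.9% of them are 2 or lower. A second deposited table, an ANOVA per the file headers, gives an unadjusted p-value, an F score and a control over induced ratio, turned round here; the values behind it are not stated, and its signed fold changes were not used. Gene symbols come from that table, and older ones were matched through a RefSeq mouse gene table.

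Here log2(signal + 16) was fitted in limma 3.58.1 under R 4.3.3 (lmFit, then eBayes). Probe sets above the 30th percentile of mean log2 signal were tested, 64 control probe sets were left out, and p-values were adjusted by Benjamini-Hochberg over 31526 probe sets, with an adjusted p under 0.05 taken as passing. A gene was read from the member probe set with the largest mean log2 signal. Probe sets whose names end in _x_at or _s_at can match several transcripts. Since each array is a pool, the p-values speak of variation among pools. The number of arrays limits the precision, and the median SE over member probe sets was 0.07. Named genes were, in each role, the called genes with the 4 highest mean signals, every called gene that was lower and the gene with the highest signal; in related lists, up to 4 called genes by p and every called regulator. The fit was tested on simulated data. The members, the lists and the rules were chosen with earlier results of these data known, and the lists are described by counts only. Alternatives changed the scaling, the pseudocount, the filter, the variance model, the arrays used and the probe set per gene.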

Additional observations from a re-analysis of the deposited data

How the results depend on the processing

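Member calls were recomputed under 16 alternative fits. Of the 19 member probe sets that were higher, 15 remained under quantile normalization, 19 under median centring, 16 with arrays scaled to 1 trimmed mean, 15 with 1 median of bright probe sets, 13 with a pseudocount of 64, 9 without a filter, 19 with a 60th percentile filter, 15 with an intensity trend and 0 with a pseudocount of 1. No lower member had been called; 3 were under quantile normalization (3 genes, Eif2c2, Eif3c and Eif5a), 2 with the bright median (1 gene), 1 with the intensity trend (1 gene) and 1 from the authors' deposited p-values after Benjamini-Hochberg, which gave 10 higher. Higher genes numbered 0 with a pseudocount of 1, 7 without a filter and 9 with the mean of a gene's probe sets. The members' median log2 change was 0.31 with a pseudocount of 1. Over all probe sets, 1320 higher and 427 lower became 958 and 838 under quantile normalization, 901 and 866 with the bright median, 110 and 101 with a pseudocount of 1, 595 and 246 without a filter, and 801 higher with a pseudocount of 64. For the related lists, 39 higher and 2 lower became 22 and 4 under quantile normalization, 25 higher with the trimmed mean, 4 lower with the bright median, 0 and 0 with a pseudocount of 1, 20 and 1 with 64, and 15 and 1 without a filter. The ratio of summed member signal, 1.50, was 1.12 under quantile normalization, 1.35 with the trimmed mean and 1.23 with the bright median. The cause of these differences was not tested.

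Leaving out each array in turn gave 728 to 1297 higher and 262 to 429 lower probe sets of all tested, 10 to 19 higher and 0 to 1 lower member probe sets, 8 to 14 higher and 0 to 1 lower member genes, 19 to 40 higher and 1 to 2 lower related genes, a median from 0.04 to 0.09 and a summed ratio from 1.40 to 1.58. Signs turned for 4 genes that were not called. Eef1d was -0.22 under quantile normalization, -0.11 with the trimmed mean, -0.22 with the bright median, and -0.01 and -0.07 without the first control or the first induced array (-0.07 to 0.08 without single arrays). Eif5a was -0.41, -0.03 and -0.17 under those scalings and 0.00 without the first induced array (0.00 to 0.19 without single arrays). Eif4ebp2 was 0.02 with median centring, 0.03 with a pseudocount of 1 and -0.19 to 0.11 without single arrays (0.00 without the first induced, 0.07 and 0.11 without the second or last control, 0.01 without the last induced array). Eif3a was 0.03 and 0.01 without the second control or the second induced array. Deviations of induced and control arrays with the same replicate number had correlations of -0.07, 0.04 and -0.03. With 3 arrays per group these cannot show whether the numbers mark a pairing, which the labels do not state. With the replicate number as a block, 13 of the 19 member probe sets were called.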
